A study of Capra hircus with 2 samples.

Results

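KRT6A, KRT8 and KRT19 encode keratins, the proteins of the intermediate filaments that give epithelial cells their mechanical strength. The 3 genes were taken by symbol (gene identifiers 102174931, 102182762 and 106501743) from the 27137 features of a single-cell RNA sequencing table of goat skin, and their transcripts were followed over the 13051 cells that the authors kept. The skin came from the scapular region of 2 healthy Liaoning cashmere goats, a breed kept for its fine undercoat, with the hair cycle in anagen, the growth phase. No age, treatment or genotype was given for either animal. The library CT-LCG came from the goat with coarse cashmere and held 3443 kept cells, and the library FT-LCG came from the goat with fine cashmere and held 9608. Both were 10x Chromium 3′ libraries, in which each captured molecule is counted once by its unique molecular identifier (UMI).

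With 1 library per fibre type, the library, the goat and the fibre type cannot be told apart, so no test between the libraries was made. The sample labels do not say which sample is which fibre type, and the library of each cell was read from the deposited cell table. A level below is the number of UMIs of a gene per 10000 UMIs of the cells named, and every interval is a 95% interval for counting error only (exact Poisson for a level, Clopper-Pearson for a share, conditional binomial for a ratio). CT-LCG held 27890472 UMIs in kept cells with a median of 2314 per cell, and FT-LCG held 85400323 with a median of 6122. The cells ranged from 630 to 190503 UMIs, and 11 barcode sequences occurred in both libraries. Because the depths differed, shares of cells were compared after each cell was thinned to 1000 UMIs, and shallower cells were left out of those shares (3074 cells of CT-LCG and 8569 of FT-LCG remained).

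A keratin filament is built from pairs of 1 type I and 1 type II chain, and the pairs mark the kind of epithelium. KRT8 is a type II keratin of simple epithelia and of glands, where its usual partner is the type I keratin KRT18, and KRT19 is a type I keratin without a tail domain that is known from simple epithelia, glands and the bulge of the hair follicle. KRT6A is a type II keratin of the outer root sheath and companion layer that also appears in interfollicular epidermis after wounding or stress. They were read beside 3 other genes: SFRP1, a secreted antagonist of Wnt signalling, ACTG2, the gamma actin of smooth muscle, and TOP2A, the topoisomerase of cycling cells. The usual type I partners of KRT6A, KRT16 and KRT17, and the bulge keratin KRT15 were not among the 34 keratin symbols of the features and were not analysed here.

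KRT6A was detected in many cells at 1 UMI and in few cells at a high level. In CT-LCG, 586 cells (17.0%, 15.8 to 18.3) held 2996 UMIs of KRT6A, a level of 1.07 (1.04 to 1.11), and 73.0% of these cells held a single UMI. In FT-LCG, 3475 cells (36.2%, 35.2 to 37.1) held 32610 UMIs, a level of 3.82 (3.78 to 3.86), and 58.8% of them held a single UMI. The richest cell had 338 UMIs of it in CT-LCG, and the richest of FT-LCG had 850. KRT6A transcripts were therefore spread thinly over a large part of the tissue and gathered in a small one, since 9 cells of CT-LCG and 65 cells of FT-LCG held 50% of them.

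KRT8 was the sparsest of the 3. It was detected in 87 cells of CT-LCG (2.53%) with 280 UMIs, a level between 0.0890 and 0.113. In FT-LCG it was detected in 411 cells (4.28%) with 1634 UMIs, a level of 0.191 (0.182 to 0.201). Its highest count in a cell was 58 UMIs in CT-LCG and 86 for FT-LCG, and 7 and 35 cells, in that order, had 50% of the transcripts.

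KRT19 depended most on single cells in CT-LCG. There, 183 cells held 1677 UMIs, a level of 0.601 (0.573 to 0.631), and the 3 richest cells alone held 58.9% of them. The richest, in the cycling cluster, held 549 UMIs of KRT19 together with 58 of KRT8, 173 of KRT7 and 11 of TOP2A among its 130262 UMIs. In FT-LCG, 1504 cells held 10834 UMIs, a level of 1.27 (1.25 to 1.29), the 3 richest cells held 4.85%, and 88 cells were needed to reach 50%. Every CT-LCG level of KRT19 given below therefore rests on few cells, and the level without the 3 richest cells stands beside it where it moves far.

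**Figure D1:**
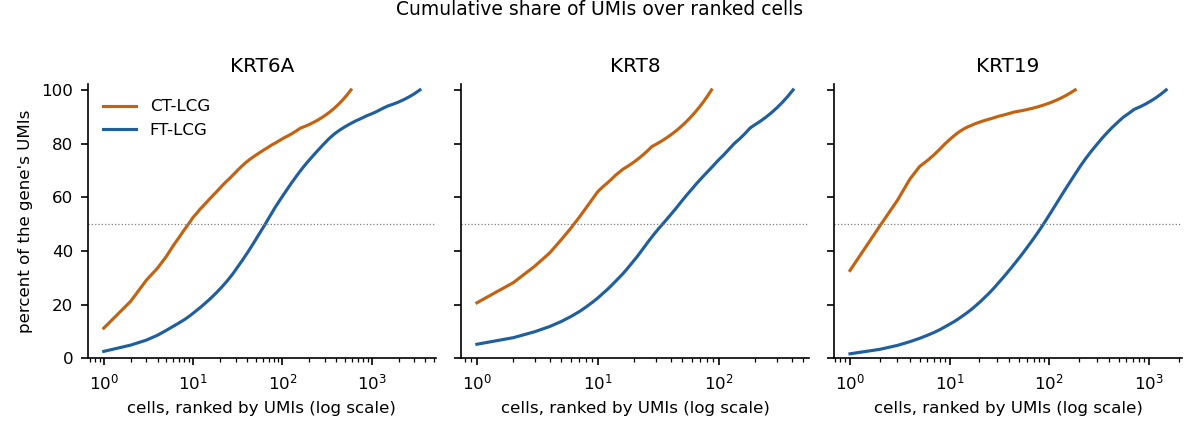
Cumulative percent of each gene's UMIs (vertical axis) over cells ranked from the richest (horizontal axis, log scale), for KRT6A, KRT8 and KRT19 in CT-LCG and FT-LCG, with a dotted line at 50%. The line is crossed at 9, 7 and 3 cells in CT-LCG and at 65, 35 and 88 cells in FT-LCG.

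Part of this detection also occurred in cells that should lack keratins. After thinning, KRT6A was found in 4 of 48 endothelial-like cells of CT-LCG (8.33%) and 9 of 136 of FT-LCG (6.62%), against 7.84% (6.91 to 8.85) and 15.1% (14.3 to 15.9) of all cells. With 4 such cells in CT-LCG, the share of KRT6A over all cells there could not be told apart from this background. In FT-LCG the share of KRT6A over all cells lay above it. KRT8 was found in 0 of 48 (a limit of 6.25%) and 2 of 136 endothelial-like cells (1.47%), against 1.11% (0.767 to 1.54) and 1.62% (1.37 to 1.91) of all cells, so with 0 and 2 such cells its share over all cells could not be told apart from background. KRT19 was found in 1 of 48 (2.08%) and 3 of 136 (2.21%), against 2.77% (2.22 to 3.41) and 7.47% (6.92 to 8.05). The endothelial-like cells had median depths of 1788 and 2760 UMIs before thinning. Barcodes that the authors did not keep had been counted as cells and then filtered out, so they were not empty droplets. They carried KRT6A at 2.36 and 5.72, KRT8 at 0.252 and 0.251, and KRT19 at 0.621 and 1.58 (CT-LCG and FT-LCG), all at or above the level of the kept cells. A single UMI was therefore not read as a sign of expression by itself, and the description turns to levels by cluster and to cells with many UMIs. The comparisons of carriers (cells with at least 1 UMI of a gene) further below still count single UMIs, and so include this background.

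The cells were grouped into 19 clusters without the 3 keratins, their co-markers, KRT7 or KRT18 among the clustering genes, and clusters were named only from marker lists. Ranked by the mean level of both libraries over the 18 clusters with at least 20 cells in each, cluster 6 stood first for all 3 keratins. This cluster, outer root sheath or bulge-like, was led by BGN, GJB6 and LGR5, the last a receptor of hair follicle stem cells, and held 70 cells of CT-LCG and 565 of FT-LCG. KRT6A stood there at 16.8 (15.7 to 17.9) in CT-LCG and 22.5 (22.1 to 23.0) in FT-LCG. Without the 3 richest cells, its level was 6.79 in CT-LCG and 19.1 in FT-LCG.

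KRT8 stood in cluster 6 at 0.774 (0.553 to 1.05) in CT-LCG and 2.17 (2.04 to 2.32) in FT-LCG. The cluster held 14.3% of the KRT8 transcripts of CT-LCG and 57.9% of those of FT-LCG. KRT19 stood there at 2.19 (1.80 to 2.63) and 11.1 (10.8 to 11.4), with 6.74% and 44.4% of the transcripts, and without the 3 richest cells its levels were 0.749 and 10.2. In CT-LCG alone, cluster 6 was thus first for KRT6A but not for KRT8 or KRT19.

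The clusters that followed differed between the genes. For KRT6A they were cluster 4 (1.32 and 21.0 in CT-LCG and FT-LCG), which was led by LOC102176685, ACTA2, CCL27 and PCP4 and has no name, and cluster 3 (1.53 and 14.4), led by LOC108633223 and ELOVL3. In CT-LCG both lay near the level of the whole library, and only in FT-LCG did they approach cluster 6. LOC102176685 and LOC108635997, leading genes of cluster 4, are neighbours of KRT6A among the features and were not left out of the clustering. Both had higher levels in KRT6A-high cells (below), so the place of cluster 4 may not be independent of KRT6A. The inner root sheath-like cluster 0 ranked next at 2.25 and 6.01, close to the levels of 2.36 and 5.72 in the barcodes not kept, and its median depth was 1080 and 1118 UMIs. The lowest levels of KRT6A were in the macrophage or dendritic-like cluster (0.123 and 0.358).

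For KRT8 the next clusters by mean rank were the fibroblast-like and the mast-like cluster, but only through FT-LCG and few cells. The fibroblast-like cluster had no UMI of KRT8 in CT-LCG (a limit of 0.0607) and a level of 1.97 (1.63 to 2.37) in FT-LCG, where 12 of 128 cells carried it and the level without the 3 richest cells was 0.859. In the mast-like cluster, 2 of 26 FT-LCG cells held all of it. The levels that rested on CT-LCG were the hair matrix or cortex-like cluster 10 (0.890 against 0.166 in FT-LCG), the cycling-like cluster 12 (0.684 against 0.174) and cluster 7, led by ESM1, STAR and LTF (0.915 against 0.106). Without the 3 richest cells these CT-LCG levels were 0.465, 0.0158 and 0.251. Cluster 4 also stood higher in CT-LCG (0.648 against 0.0746 in FT-LCG), and its CT-LCG level was 0.477 without the 3 richest cells. In the basal epidermal-like cluster KRT8 had no UMI in CT-LCG (a limit of 0.0107) and stood at 0.0344 in FT-LCG.

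KRT19 in CT-LCG was highest in cluster 10 (8.34), cluster 12 (6.30) and cluster 7 (3.05), and without the 3 richest cells these levels were 2.80, 0.197 and 0.0628. In the fibroblast-like cluster it stood at 0.0607 in CT-LCG and 0.727 for FT-LCG, unlike the high rank of KRT8 there, which came mainly from the cells with ACTG2. In FT-LCG it stood at 2.35, 1.79 and 1.68 in those clusters and at 2.79 in cluster 3. The level of 13.0 in the mast-like cluster of FT-LCG came wholly from 3 of 26 cells with 122 UMIs, and without them it was 0. The lowest ranks for KRT19 were those of cluster 2, led by CCL20 and KRT9 (0.0111 and 0.0530), followed by the granular layer-like cells (0.0196 and 0.0454).

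**Figure D2:**
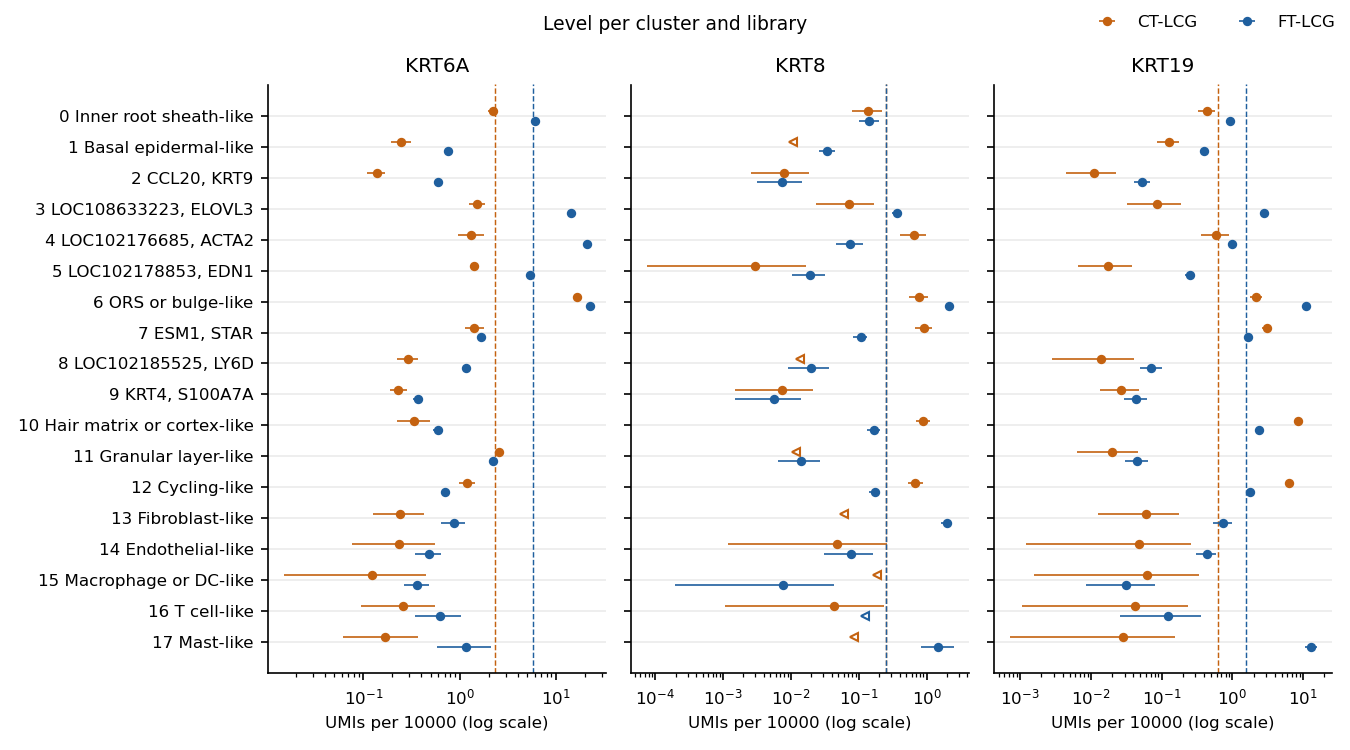
Level of KRT6A, KRT8 and KRT19 (UMIs per 10000, log scale) in the 18 clusters with at least 20 cells in each library, with exact Poisson 95% intervals, dashed lines at the level in barcodes not kept and open triangles at the limit of 3 counts where no UMI was found (ORS, outer root sheath; DC, dendritic cell). Cluster 6 lies at 16.8 and 22.5 for KRT6A, while KRT8 and KRT19 are higher there in FT-LCG (2.17 and 11.1) than in CT-LCG (0.774 and 2.19).

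To set expressing cells apart from stray UMIs, a cell was called high for a gene when it held at least 5 UMIs and at least 10 per 10000, a limit chosen after the values were seen. KRT6A was high in 33 cells of CT-LCG (0.959%, at levels of 10.4 to 160, median 45.3) and 366 cells of FT-LCG (3.81%, 10.0 to 443, median 33.3), which held 67.5% and 80.7% of its transcripts. KRT8 was high in 1 cell of CT-LCG and 39 cells of FT-LCG (0.406%, 10.2 to 49.2, median 14.0). KRT19 was high in 14 cells of CT-LCG (0.407%, 10.9 to 68.0, median 22.7) and 216 of FT-LCG (2.25%, 10.1 to 121, median 22.6). These cells were deeper than the rest: the median in FT-LCG was 11990 UMIs for KRT6A, 9051 for KRT8 and 7768 for KRT19, against 5942 to 6101 in the other cells. Their median doublet scores were not above those of the other cells in FT-LCG for KRT8 (0.0397 against 0.0525) or KRT19 (0.0407 against 0.0525), and for KRT6A the scores were 0.0540 and 0.0525.

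The 3 keratins did not mark one set of cells. Of the 585 FT-LCG cells high for any of them, 26 were high for both KRT8 and KRT19, 10 for both KRT6A and KRT19, and 0 for both KRT6A and KRT8. In CT-LCG the 48 cells had no overlap at all, although the single KRT8-high cell leaves little to overlap. KRT19 was thus high in 66.7% of the 39 KRT8-high cells against 2.25% of all cells. Of the 366 KRT6A-high cells, 2.73% were KRT19-high, close to that share, and 0 of the 39 KRT8-high cells were KRT6A-high where 3.81% of all cells were, too few cells for an overlap of 0 to say more.

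KRT6A-high cells were found across most epithelial clusters. In FT-LCG, 96 were in cluster 6 (17.0% of that cluster's cells), 73 in cluster 5, which was led by LOC102178853 and EDN1 and carried KRT79, 69 in cluster 3, 46 in cluster 4, 17 in the inner root sheath-like cluster and 17 in the granular layer-like cluster. None were in the fibroblast, endothelial, macrophage, T cell or mast-like clusters. In CT-LCG, 10 of the 33 were in cluster 6 (14.3% of its cells), 7 in cluster 0 and 5 in the granular layer-like cluster.

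The company KRT6A kept differed from cluster to cluster in FT-LCG. In cluster 6 its level over the 96 high cells was 70.0, 86 of them carried SFRP1 (level 6.96), and KRT79, a type II keratin of the follicle's infundibulum and sebaceous duct, was found in 13 (0.104). In cluster 4 the level over 46 cells was 102.3, with SFRP1 in 35. In cluster 5 the level was 22.9 over 73 cells, with KRT79 in 55 (7.91) and SFRP1 in 21 (0.365). In cluster 3 it was 57.8 over 69 cells, with KRT79 in 30 and SPP1, which encodes osteopontin, in 47 (10.8). High KRT6A thus occurred both in SFRP1-carrying cells with little KRT79 and in KRT79-carrying cells with little SFRP1. In CT-LCG, all 10 high cells of cluster 6 carried SFRP1 (6.96, with KRT6A at 71.0), and 4 of the 5 in the granular layer-like cluster carried KRT79 (54.1).

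KRT19-high cells were mostly in cluster 6 in FT-LCG, with 130 of 216 (23.0% of the cluster), followed by 18 in cluster 7, 17 in the cycling-like cluster, 16 in the basal epidermal-like cluster and 14 in cluster 10. In CT-LCG, 5 of 14 were in cluster 6 and 5 in cluster 10. KRT8-high cells of FT-LCG were 27 in cluster 6, 6 in the fibroblast-like cluster, 2 in cluster 3, 2 in the cycling-like cluster, and 1 each in cluster 4 and the mast-like cluster. The only KRT8-high cell of CT-LCG was in cluster 7.

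The KRT19-high cells of cluster 6 differed in make-up from those elsewhere, and LGR5 and LCN2 are themselves leading genes of that cluster. In FT-LCG, 123 of the 130 carried SFRP1 (11.3), 105 LGR5 (2.94), 104 KRT7 (2.93), 83 KRT8 (5.28) and 69 LCN2 (3.33), which encodes lipocalin 2, an iron-chelating secreted protein. The 17 in the cycling-like cluster carried TOP2A in 16 (5.91) and KRT7 in 8. The 14 in cluster 10 carried SFRP1 in 1, LGR5 in 1 and KRT7 in 5. Of the 55 in the remaining clusters, 8 carried LGR5 (0.149), while 10 carried LTF, which encodes lactoferrin (3.17), and 7 PAEP, which in ruminants encodes the milk whey protein beta-lactoglobulin (13.7). In the 130 cells of cluster 6 LTF and PAEP were nearly absent (0.0151 and 0.0227).

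In CT-LCG the KRT19-high cells of cluster 10 shared LTF with some of the FT-LCG cells outside cluster 6. All 5 carried KRT7 (5.85) and PGLYRP1, a secreted peptidoglycan recognition protein (9.55), 4 carried KRT18 (2.68), 4 carried KRT8, 3 carried LTF (4.40), and none carried SFRP1 or LGR5. Their level of KRT14, the basal type I keratin, was 0.493. The name of cluster 10 comes from markers over the whole cluster. Over all 14 KRT19-high cells of CT-LCG the hair matrix or cortex list stood at 0.222 against 1.71 in other cells. Of its 6 measured genes, 0 were at least 2-fold higher, 2 were lower and 3 had no UMI. In FT-LCG the list stood at 7.01 against 5.46, with 2 higher and 2 lower. The 5 KRT19-high cells in cluster 6 carried SFRP1 in 4 and KRT14 at 94.4, with no UMI of KRT18 or PAEP.

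SFRP1 was found with each of the 3 keratins. After thinning, SFRP1 was detected in 176 of 1292 KRT6A carriers of FT-LCG (13.6%) against 8.41% of other cells, a log2 ratio of 0.70 (0.45 to 0.94), and in 15 of 241 carriers of CT-LCG (6.22% against 3.14%, log2 ratio 0.99, 0.09 to 1.79). For KRT8 the shares were 49 of 139 in FT-LCG (35.3% against 8.77%, log2 ratio 2.01, 1.56 to 2.43) and 4 of 34 in CT-LCG (11.8% against 3.29%, log2 ratio 1.84, with an interval from -0.07 to 3.24 that includes 0). For KRT19 they were 163 of 640 in FT-LCG (25.5% against 7.88%, log2 ratio 1.69, 1.43 to 1.94) and 8 of 85 in CT-LCG (9.41% against 3.21%, log2 ratio 1.55, 0.30 to 2.59). The ratios thus lay above 0 in both libraries for KRT6A and KRT19, and in FT-LCG for KRT8.

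Within cluster 6 this difference was small in FT-LCG. In thinned cells of FT-LCG, SFRP1 was in 53.2% of KRT6A carriers against 64.9% of the cluster's other cells (log2 ratio -0.29, -0.68 to 0.09). It was in 66.7% of KRT8 carriers against 61.1% (0.13, -0.39 to 0.61) and in 64.9% of KRT19 carriers against 59.7% (0.12, -0.21 to 0.45). Each of these intervals includes 0. In CT-LCG the cluster held too few carriers to tell, with SFRP1 in 7 of 16 KRT6A carriers against 37.7% (log2 ratio 0.21), 3 of 3 KRT8 carriers against 36.4% (1.46, -0.92 to 3.18) and 6 of 10 KRT19 carriers against 35.6% (0.75, -0.85 to 2.11). Seen from SFRP1, 199 of the 217 SFRP1-high cells of FT-LCG were in cluster 6, and of the 217, 134 carried KRT19 (11.5 against 1.06 in other cells), 101 carried KRT6A (10.1 against 3.69) and 79 carried KRT8 (1.82 against 0.158). KRT19 and KRT8 were thus further above the other cells than KRT6A was.

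ACTG2 accompanied KRT8 most clearly. It was found in 5 of 34 thinned KRT8 carriers of CT-LCG (14.7% against 0.461%, log2 ratio 5.00, 3.17 to 6.55) and 6 of 139 of FT-LCG (4.32% against 0.463%, log2 ratio 3.22, 1.69 to 4.47). Among KRT6A carriers the shares were 0.415% against 0.635% in CT-LCG and 0.774% against 0.481% in FT-LCG, and among KRT19 carriers 1.18% against 0.602% and 0.781% against 0.505%, each from 10 or fewer carriers. For KRT19 in CT-LCG the ratio was unsettled: 3 of the 14 KRT19-high cells held a UMI of ACTG2 (21.4%, 4.66 to 50.8) against 1.08% of other cells, none with 5 or more, at a level of 0.121 against 0.0865, and the log2 ratio of carriers was 0.97 at 1000 UMIs and 4.13 at 2000. Of the 12 ACTG2-high cells of FT-LCG, 11 carried KRT8 (13.9 against 0.172), 9 KRT18 (2.00 against 0.0217), 3 KRT6A (0.334 against 3.82) and 0 KRT19 (a limit of 0.250). In CT-LCG, 4 of the 8 ACTG2-high cells carried KRT8 (6.05 against 0.0983), 2 carried KRT18 and none carried KRT6A or KRT19. All 8 were in cluster 4, whereas those of FT-LCG were 5 in cluster 6, 5 in the fibroblast-like cluster, 1 in cluster 3 and 1 in cluster 4.

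Among thinned carriers, TOP2A showed no like excess for KRT6A or KRT8. Its shares in KRT6A carriers were 0.830% against 1.62% in CT-LCG and 2.25% against 2.42% in FT-LCG, and in KRT8 carriers 0 of 34 (a limit of 8.82%) and 2.16% against 2.40%. For KRT19 they were 6 of 85 in CT-LCG (7.06% against 1.41%, log2 ratio 2.33, 0.80 to 3.57) and 19 of 640 in FT-LCG (2.97% against 2.35%, log2 ratio 0.34, -0.42 to 1.02), so TOP2A was more frequent with KRT19 in CT-LCG, and at 2000 UMIs per cell that ratio was 0.13. Of the 40 TOP2A-high cells of FT-LCG, all in the cycling-like cluster, 12 carried KRT19 (3.77 against 1.25), 8 KRT6A (0.737 against 3.84) and 2 KRT8 (0.205 against 0.191). In the KRT8-high cells of FT-LCG, TOP2A was in 6 of 39 and stood at 0.869 against 0.371 in other cells. For KRT19-high cells the levels were close to these (0.886 against 0.358), and for KRT6A-high cells TOP2A was lower (0.0792 against 0.393). Of the 38 TOP2A UMIs in KRT8-high cells, 30 lay in 1 cell of the cycling-like cluster.

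**Figure D3:**
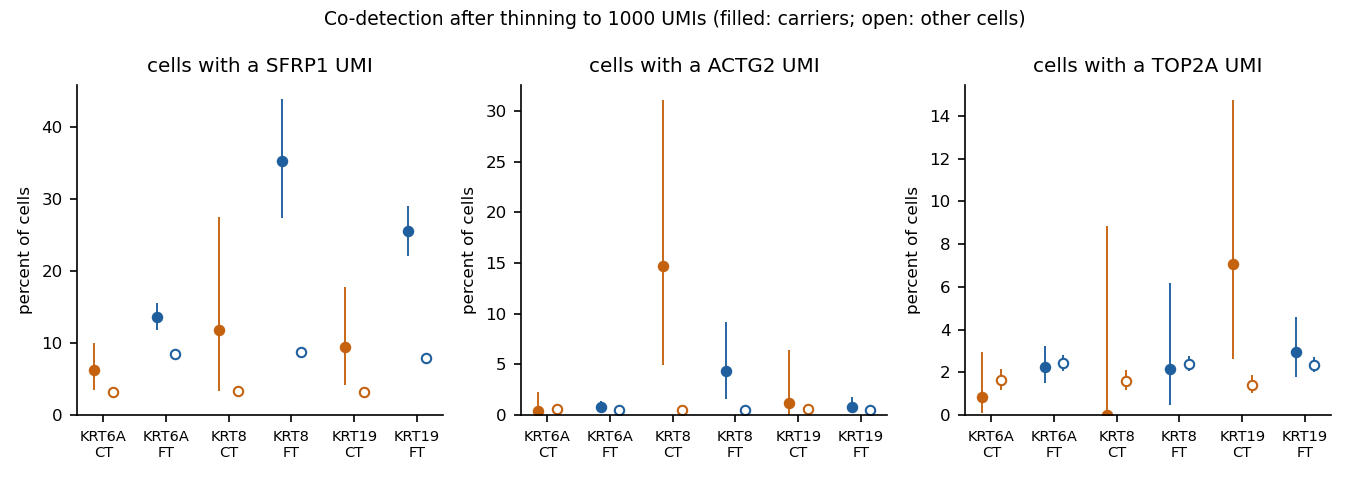
Percent of cells with a UMI of SFRP1, ACTG2 or TOP2A after thinning to 1000 UMIs, in carriers of KRT6A, KRT8 or KRT19 (filled) and in all other cells (open), by library, with Clopper-Pearson 95% intervals. In FT-LCG SFRP1 reaches 13.6%, 35.3% and 25.5% of KRT6A, KRT8 and KRT19 carriers, and ACTG2 stands out for KRT8 (CT-LCG 14.7%, FT-LCG 4.32%).

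The cells with at least 5 UMIs of KRT8, 11 in CT-LCG and 76 in FT-LCG, fell into sets by KRT19 and ACTG2. In FT-LCG, 54 of the 76 held at least 5 UMIs of KRT19, 9 held at least 5 of ACTG2, and 13 held neither. In CT-LCG, 9 of the 11 belonged to the KRT19 set and 2 held neither. No cell of either library held 5 or more UMIs of both KRT19 and ACTG2, among 21 cells with that much KRT19 and 9 with that much ACTG2 in CT-LCG, and 403 and 12 of 9608 cells in FT-LCG, numbers too small for 0 joint cells to say more.

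The ACTG2 set of FT-LCG carried the contractile genes of smooth muscle and myoepithelium throughout. Its 9 cells had KRT8 at 15.5, ACTG2 at 55.9, the smooth muscle actin ACTA2 at 58.4, the actin-binding TAGLN at 138, the myosin heavy chain MYH11 at 45.3, and each of these was present in 9 of 9 cells. They also carried SFRP1 in 9 (2.96), KRT18 in 8 (2.20) and KRT7 in 4 (0.573), with KRT5 at 31.3 and KRT14 at 23.9, and KRT19 in none. LTF and ESM1 were found in 6 each (3.15 and 2.77). Their median depth was 10800 UMIs, and 4 were in cluster 6 and 5 in the fibroblast-like cluster. The set was chosen by KRT8 and ACTG2, so a keratin and a muscle gene in the same barcode followed from that choice. Its levels of KRT5 and KRT14 were below those of all kept cells of FT-LCG (83.7 and 146). They were also below those of the FT-LCG barcodes not kept (81.9 and 110).

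The KRT19 set of FT-LCG, 54 cells with a median of 17300 UMIs, had KRT8 at 7.04 and KRT19 at 26.6. KRT7, a type II simple epithelial keratin, was in 49 (5.66), SFRP1 in 45 (7.36), PGLYRP1 in 43 (7.65), LCN2 in 39 (2.13) and LGR5 in 36 (1.42), whereas KRT18 was in 17 (0.466), ACTG2 in 4 (0.0409) and MYH11 in none. Of these cells, 39 were in cluster 6. The 9 cells of the same set in CT-LCG, with a median of 45450 UMIs, differed in make-up: KRT7 was in 8 (8.64) and KRT18 in 8 (2.14), but LCN2 was in none, SFRP1 in 2 and LGR5 in 1, while PAEP was in 5 (52.0), LTF in 6 (5.80) and ESM1 in 6 (2.69). In FT-LCG PAEP, LTF and ESM1 were found in 6, 7 and 7 of the 54 cells. Of the CT-LCG cells, 4 were in cluster 10, 3 in cluster 7, and 1 each in clusters 6 and 12. The part that their depth played in these counts was not tested.

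KRT6A and KRT19 were unevenly shared out within cluster 6 itself. In thinned FT-LCG cells of the cluster, KRT19 was detected in 28 of 143 KRT6A carriers (19.6%) against 177 of 387 cells without KRT6A (45.7%), a log2 ratio of -1.22 (-1.85 to -0.64). KRT8 was in 9 of 143 against 51 of 387 (6.29% and 13.2%, log2 ratio -1.07, -2.27 to -0.03). Taken from KRT8 carriers, the same pair gave -0.93 (-2.09 to 0.04, which includes 0). KRT7 was in 10 of 143 KRT6A carriers against 58 of 387 (-1.10, -2.23 to -0.12). In CT-LCG, KRT19 was in 0 of 16 KRT6A carriers and 10 of 53 other cells. By contrast, KRT19 was in 43 of 60 KRT8 carriers of the cluster in FT-LCG (71.7%) against 34.5% (log2 ratio 1.06). KRT7 was in 23.3% of KRT8 carriers there against 11.5% (log2 ratio 1.02, 0.06 to 1.89). It was in 16.1% of KRT19 carriers against 10.8% (0.58, -0.15 to 1.31, which includes 0). In cluster 6 of FT-LCG, KRT8 was thus found together with KRT19 and, less clearly, with KRT7. KRT19 was found less often there where KRT6A was found. For KRT8 and KRT7 the direction was the same but less clear, with intervals that ended near 0.

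**Figure D4:**
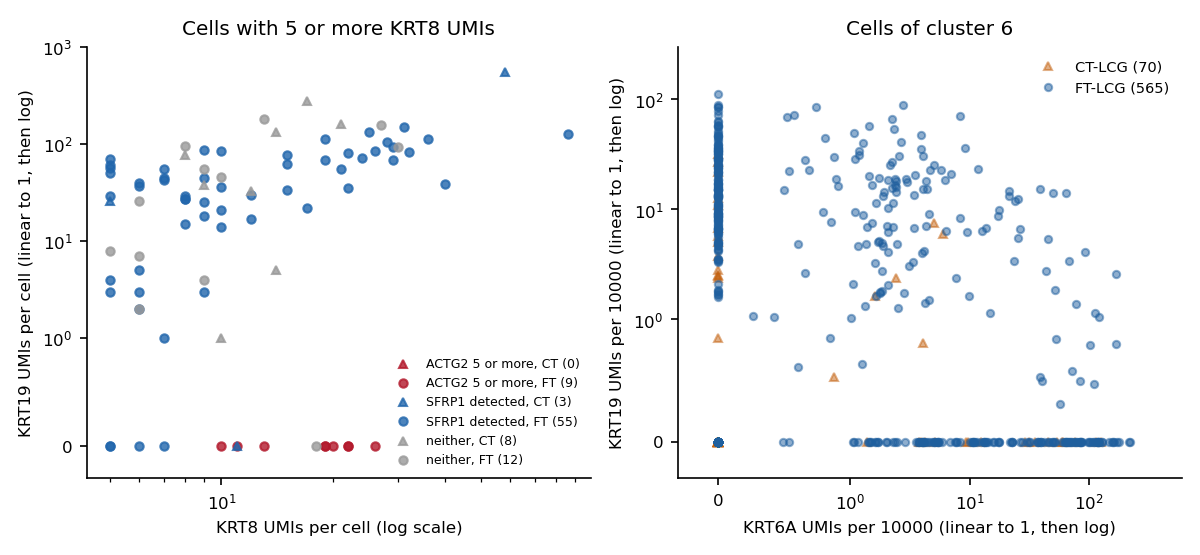
Left, UMIs of KRT8 (horizontal, log scale) and KRT19 (vertical, linear to 1 and log above) in the 87 cells with at least 5 UMIs of KRT8, coloured by ACTG2 of at least 5 UMIs, SFRP1 detected, or neither; right, KRT6A (horizontal) and KRT19 level (vertical; UMIs per 10000, both linear to 1 and log above) in each cell of cluster 6. The 9 cells with ACTG2 lie at 0 KRT19, and in cluster 6 the highest levels of KRT6A and of KRT19 occur in different cells.

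Of the 3 pairs among these keratins, KRT8 and KRT19 had the largest ratio across all thinned cells in both libraries. KRT19 was in 62 of 139 KRT8 carriers of FT-LCG (44.6% against 6.86%, log2 ratio 2.70, 2.30 to 3.08) and 6 of 34 of CT-LCG (17.7% against 2.60%, log2 ratio 2.76). Between KRT6A and KRT8 the log2 ratio in FT-LCG was 0.08 and between KRT6A and KRT19 it was 0.18 (-0.14 to 0.48), so no excess beyond counting error was detected there. KRT7 followed both KRT8 (16.6% against 1.64% in FT-LCG, log2 ratio 3.34) and KRT19 (8.44% against 1.35%, 2.64). KRT79 followed KRT6A, in 17.7% of carriers against 8.84% in FT-LCG (log2 ratio 1.00, 0.77 to 1.22) and 12.9% against 6.11% in CT-LCG (1.08, 0.47 to 1.63).

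KRT18, the textbook partner of KRT8, was rarer than KRT8 in UMIs and in cells. It had 166 UMIs in 36 cells of CT-LCG and 209 in 94 cells of FT-LCG. Of the 39 KRT8-high cells of FT-LCG, 16 carried it (1.10 against 0.0190 in other cells, log2 ratio 5.86), while 30 carried KRT19 (39.3 against 1.07, log2 ratio 5.20) and 31 carried KRT7 (4.25 against 0.245, log2 ratio 4.12). More KRT8-high cells thus had a UMI of the type I keratin KRT19 than of KRT18. Whether capture differed between these genes was not tested. Both epidermal basal keratins were present in these cells, KRT5 at 96.6 (83.7 in other cells) and KRT14 at 90.5 (146).

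Of the keratin and marker lists, those of the suprabasal and granular epidermis were low in KRT8-high and KRT19-high cells. The 5 suprabasal genes, among them KRT1 and KRT10, the keratins of differentiating epidermis, summed to 12.1 in KRT8-high cells of FT-LCG against 364 in other cells, with 5 of 5 at least 2-fold lower. In KRT19-high cells they summed to 35.7 against 372 in FT-LCG and to 21.1 against 609 in CT-LCG, again with 5 of 5 lower. The granular layer list stood at 8.71 against 104 for KRT8 and 11.1 against 106 for KRT19 in FT-LCG. In KRT6A-high cells that list was higher instead, at 165.5 against 98.7 in FT-LCG and 230.9 against 26.6 in CT-LCG. Of its 5 measured genes, 1 was at least 2-fold higher and 3 lower in FT-LCG, and 1 higher and 2 lower in CT-LCG. In KRT6A-high cells the epidermal keratins together were level (463 against 469), although 4 of 7 were at least 2-fold lower, with KRT1 at 33.4 against 79.2 and KRT10 at 75.8 against 163, and KRT5 and KRT14 were higher (145 against 79.6 and 206 against 142).

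The outer root sheath or bulge list was higher around all 3 keratins in FT-LCG. It stood at 9.60 against 4.96 in KRT6A-high cells, with 2 of 6 measured genes at least 2-fold higher, among them SOX9, a transcription factor of the outer root sheath (5.59 against 1.97). In KRT8-high cells it stood at 10.9 against 5.23, with 4 of 6 higher and 1 lower. In KRT19-high cells it stood at 11.99 against 5.05 in FT-LCG, with 3 of 6 higher, among them LGR5 (1.63 against 0.114) and the transcription factor NFIB (5.41 against 2.03), and at 4.27 against 2.25 in CT-LCG, with 2 of 6 higher and 1 lower. For KRT6A in CT-LCG the levels were 7.09 and 2.21, with 2 of 6 higher and 1 lower.

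Markers of other cells that use these keratins gave mixed values. The muscle list was higher in KRT8-high cells in FT-LCG, at 74.6 against 0.712, with 7 of 7 genes at least 2-fold higher, of which DES and LMOD1 rested on 14 and 1 UMIs. In KRT19-high cells it stood at 4.75 against 0.979 in FT-LCG, with 3 of 7 higher and 1 lower. In CT-LCG it stood at 0.846 against 0.442 there, with 2 higher and 0 lower. ACTA2 was in 40 of the 216 KRT19-high cells of FT-LCG (0.886 against 0.161), 17 of them with 5 or more UMIs. Merkel cells, the touch receptors of the skin, are known to carry KRT8 and KRT20, but of their 6 markers only SOX2 was found in the KRT8-high cells of FT-LCG, with 1 UMI, and ATOH1, ISL1, CHGA, PIEZO2 and KRT20 were at 0. The gland luminal list was level in KRT8-high cells of FT-LCG (9.69 against 9.42), although 3 of its 7 genes were at least 2-fold higher and 0 lower. Of its genes, CLDN3, a tight junction gene, stood at 1.30 against 0.165, and AQP5 and MUC1 were at 0. In KRT19-high cells 2 of the 7 were at least 2-fold higher and 1 lower in CT-LCG, and 3 higher and 2 lower in FT-LCG. CLDN3 stood there at 3.38 against 0.154 in CT-LCG and 0.898 against 0.149 in FT-LCG. AQP5 stood at 0.222 against 0.431 and 0.0280 against 0.237, and MUC1 at 0 in both.

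Cycling markers summed to 0.461 in KRT6A-high cells of FT-LCG against 1.90 in other cells, with 6 of 6 at least 2-fold lower, but in CT-LCG the sums were 0.389 and 0.494 (log2 ratio -0.34, -1.13 to 0.34), with 1 higher and 1 lower. In KRT19-high cells they were higher, at 3.42 against 1.76 in FT-LCG with 2 of 6 at least 2-fold higher, and at 1.47 against 0.474 in CT-LCG with 4 of 6, where the cell richest in KRT19 was in the cycling-like cluster. KRT8-high cells of FT-LCG were much the same, at 3.59 against 1.80, with 2 of 6 at least 2-fold higher and 0 lower. Of the genes that anchor filaments to junctions, in KRT6A-high cells of FT-LCG the 13 measured summed to 33.2 against 21.2, with 0 at least 2-fold higher and 1 lower, DSP, which encodes desmoplakin, at 16.6 against 9.13, and JUP, which encodes plakoglobin, at 5.97 against 3.41. KRT6A is known to respond to stress, and the 8 dissociation genes stood at 109 against 122 in KRT6A-high cells of FT-LCG and 145 against 111 in CT-LCG, with none 2-fold apart in either. Fibroblast markers were at 0.109 against 2.10 and endothelial markers at 0.0203 against 0.505 in KRT6A-high cells of FT-LCG. In KRT8-high cells of FT-LCG fibroblast markers stood at 1.56 against 1.97, and 6 of those 39 cells were in the fibroblast-like cluster.

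Across 36 points (18 clusters in 2 libraries), the genes with the profile most like each keratin were ranked by Pearson's r of log2(level + 0.1) among 9947 genes. The points share libraries, depth and free RNA, and the values are a description. For KRT8 they were KRT7 (0.91), KRT19 (0.86), SPP1 (0.85), the tropomyosin gene TPM1 (0.81) and WFDC2 (0.78). For KRT19 they were KRT7 (0.94), KRT8 (0.86), ADI1 (0.81), PATZ1 (0.79) and SPP1 (0.79). For KRT6A they were LOC102180424 (0.86), BARX2, a homeobox gene (0.86), the small heat shock protein gene CRYAB (0.84), GATM (0.83) and SOX9 (0.82). Over both libraries together, KRT8 and KRT19 thus named each other and KRT7 first, while KRT6A correlated with them at 0.43 and 0.50. With CT-LCG alone, KRT8 and KRT19 again named KRT7 and each other first. With FT-LCG alone, the 5 genes most like KRT8 held neither KRT7 nor KRT19. The 5 most like KRT19 then held KRT7 but not KRT8. Of the co-markers, SFRP1 correlated with KRT6A, KRT8 and KRT19 at 0.58, 0.53 and 0.54, ACTG2 with KRT8 at 0.53 and with KRT19 at 0.20, and TOP2A with KRT19 at 0.40 and with KRT8 at 0.26.

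Genes at least 2-fold higher in carriers than in other cells in both libraries numbered 17 of 7506 for KRT6A (0.226%), 95 of 2457 for KRT8 (3.87%) and 101 of 4112 for KRT19 (2.46%). The carriers were set by the keratin itself, so these are descriptions. With carriers and levels taken after thinning, fewer genes had enough UMIs, and the numbers were 1 of 601, 2 of 121 and 11 of 218. Of the first 10 genes of each keratin, 1, 0 and 4 were again among the first 10 after thinning. In KRT8 carriers the first 10 held genes of secreted proteins, PAEP (log2 ratio 9.74 in CT-LCG and 7.32 in FT-LCG), ESM1 (7.70 and 6.34), LTF (6.30 and 6.98), LCN2 (5.50 and 5.22) and PGLYRP1 (5.62 and 4.70), beside 3 LOC genes, KRT7 (6.77 and 4.20) and ACTG2 (4.13 and 5.95). KRT19 carriers shared PAEP (9.52 and 6.02) and LTF (6.39 and 4.21), beside GLYATL2 (5.29 and 4.10) and 7 LOC genes. KRT6A carriers were led by LOC102176685 (1.94 and 3.24) and CRYAB (1.65 and 1.57), with SLC39A8, SHF, KLK6, TPM1, GATM, PDZRN3 and HSD17B14 between 1.21 and 2.09 in both.

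By list, the simple epithelial keratins KRT7, KRT18 and the other of the pair KRT8 and KRT19 were at least 2-fold higher in both libraries in carriers of KRT8 (3 of 3 with enough UMIs, medians 6.77 for CT-LCG and 3.88 for FT-LCG) and of KRT19 (3 of 3, medians 6.47 and 3.33). None of 3 were so in carriers of KRT6A. The medians over all genes lay between -0.18 and 0.10. Of the 8 dissociation genes 0 passed for any of the 3 keratins.

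LOC102176685, LOC108635997 and LOC108633262 follow KRT6A directly in the order of the features, after KRT5, and had higher levels in KRT6A-high cells. In KRT6A-high cells of FT-LCG their log2 ratios against other cells were 5.22, 5.05 and 4.43. These rest on few cells, since 50, 61 and 44 of the 366 KRT6A-high cells carried them. Over all kept cells of FT-LCG, 6, 5 and 11 cells held 50% of their UMIs. LOC102176685 was also higher in KRT19-high cells of FT-LCG (7.95 against 0.491), but LOC108635997 (0.144 against 0.126) and LOC108633262 (0.0319 against 0.0540) were not clearly so. The sources used here do not say whether reads could be split between such neighbours, so the level of KRT6A itself is uncertain to that extent, and the part of shared reads was not tested.

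All 3 keratins had more UMIs per 10000 in FT-LCG than in CT-LCG. The log2 ratio was 1.83 (1.78 to 1.88) for KRT6A, 0.93 (0.75 to 1.12) for KRT8 and 1.08 (1.00 to 1.15) for KRT19, so 2 of the 3 genes were past 2-fold, against 8.41% of the 13014 genes compared. The median over those genes was 0.03. Cluster 6, where all 3 rank first, held 70 of 3443 cells in CT-LCG and 565 of 9608 in FT-LCG, and barcodes not kept carried more KRT6A and KRT19 in FT-LCG as well. With all clusters weighted equally the ratios were 1.40, 0.70 and 0.78. Without the 3 richest cells of each gene in each library they were 2.22, 1.37 and 2.27, so the ratio of KRT19 in particular depends on 3 cells of CT-LCG, and KRT8 was then past 2-fold as well. Such a difference was not particular to these keratins. KRT5 (83.7 against 25.9), KRT14 (146 against 49.7), SFRP1 (0.997 against 0.228) and TOP2A (0.373 against 0.109) were also higher in FT-LCG. KRT7 (0.265 against 0.225) and ACTG2 (0.0910 against 0.0871) differed little, and KRT18 was lower (0.0245 against 0.0595).

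In cluster 6 KRT19 differed by 2.34 (2.07 to 2.62), KRT8 by 1.49 (1.03 to 1.99) and KRT6A by 0.43 (0.33 to 0.53), so KRT8 and KRT19 were past 2-fold, against 6.43% of 5353 genes there, where the median was -0.09. Without the 3 richest cells of each library in the cluster the ratios were 3.76, 2.14 and 1.49, in the same order of genes and with all 3 past 2-fold. The co-marker SFRP1 differed by 1.26 in the same cells. For KRT6A the ratio was 3.99 (3.57 to 4.45) in cluster 4 and 3.24 in cluster 3, and without the 3 richest cells 3.93 and 3.99. In the cycling-like and granular layer-like clusters it was -0.75 and -0.20 (-0.34 to -0.07), but 90 of the 108 and 518 of the 656 CT-LCG UMIs there lay in 3 cells, and without the 3 richest cells the direction turned, to 1.06 and 1.24.

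Other clusters went the opposite way for KRT8 and KRT19, with CT-LCG values that rest on a few cells. In cluster 10 the log2 ratios were -2.43 for KRT8 and -1.83 for KRT19, in cluster 12 they were -1.98 and -1.82, and in cluster 7 they were -3.10 and -0.86. KRT7 showed the same direction there (-2.51, -2.94 and -3.81). Without the 3 richest cells of each gene in each library and cluster, the ratio of KRT19 turned in clusters 12 (2.78) and 7 (4.603) and was -0.40 in cluster 10. That of KRT8 turned in cluster 12 (2.00) and was -1.95 in cluster 10 and -1.80 in cluster 7. KRT8 was also lower in FT-LCG in cluster 4, at -3.12 (-4.07 to -2.18), and at -3.67 without the 3 richest cells. In cluster 3 KRT19 and KRT8 were higher in FT-LCG, by 5.00 and 2.35 over 6 and 5 UMIs in CT-LCG, and by 5.86 and 2.38 without the 3 richest cells.

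**Figure D5:**
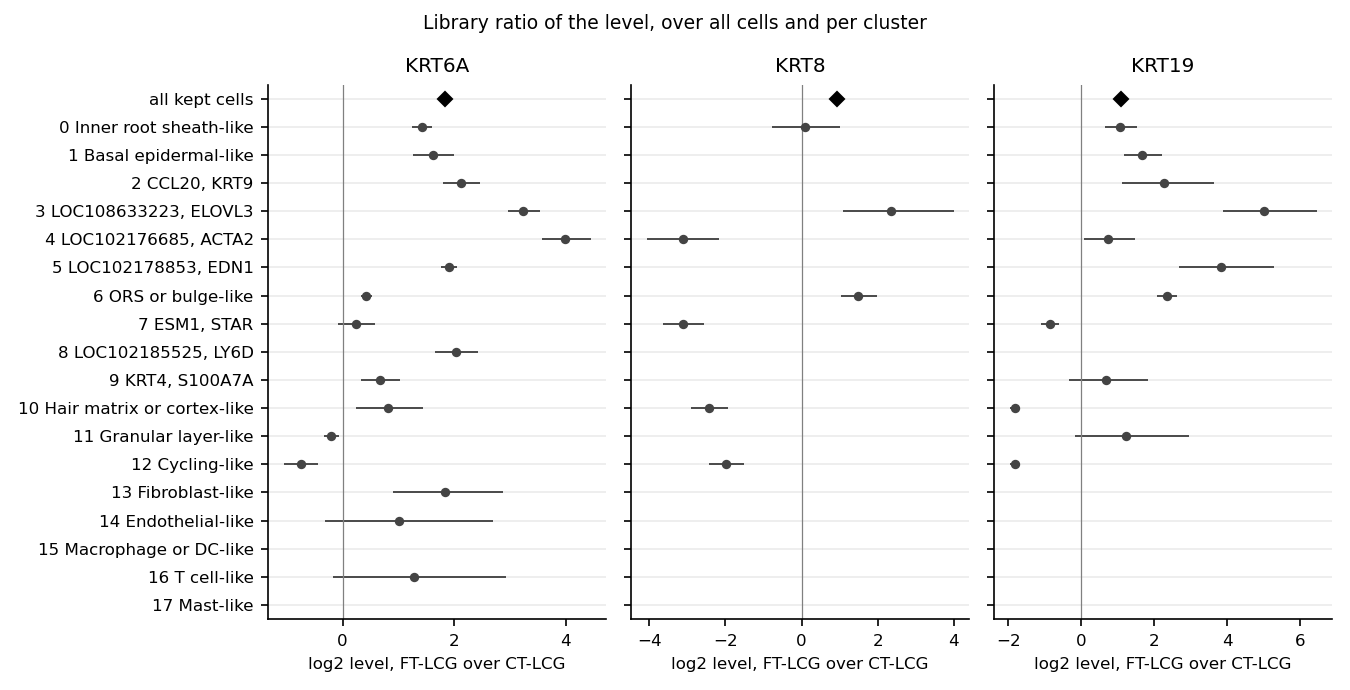
Log2 ratio of the level in FT-LCG over CT-LCG for KRT6A, KRT8 and KRT19 in all kept cells and in each cluster with at least 5 CT-LCG UMIs and 20 UMIs in all, with conditional binomial 95% intervals for counting error. KRT6A lies at 1.83 over all cells and 0.43 in cluster 6, whereas KRT8 and KRT19 lie at 1.49 and 2.34 in cluster 6 and below 0 in clusters 7, 10 and 12 with the richest cells included. KRT8 also lies below 0 in cluster 4 (-3.12).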

How the data were processed

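Skin cells of 2 goats were profiled in 2 libraries, and the deposited table holds the authors' counts: UMIs per gene and barcode, not normalized. Per the file headers the counts were made with Cell Ranger 3.0.2, and the submitters' processing notes also name bcl2fastq and Seurat 3.1.1. The notes list only human and mouse genome builds; the sources used here give no goat build or annotation. The authors filtered cells at 500 genes and on mitochondrial gene coverage, and a deposited table lists the kept cells (of 17299 barcodes) with their library. The barcodes not kept are thus cells that were filtered out, not empty droplets. Of the 27137 features, 27103 matched the RefSeq gene table of ARS1.2, used for names only.

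Cells were clustered with scanpy 1.11.5, igraph 0.11.9 and leidenalg 0.10.2 (Python 3.11.15, numpy 2.4.6, scipy 1.17.1, pandas 2.3.3, scikit-learn 1.9.0, matplotlib 3.10.9) on 2000 variable genes that were found in 10 or more cells. The 3 keratins, their co-markers and related keratins were left out, a list of 10 genes, of which KRT16 and KRT17 were not among the features. The clustering used 10 principal components corrected with Harmony, 20 neighbours and a Leiden resolution of 0.9, which gave 19 clusters. A cluster was named where a marker list had a mean log2 fold of at least 1.5 and a marker among its 10 leading genes, or of at least 3 without one. Scrublet marked 0 cells in both libraries and so did not work as a doublet caller, and its highest 5% of scores were left out as an alternative.

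The 3 keratins and all lists were chosen with earlier results of these data known. The genes named are the 3 keratins, SFRP1, ACTG2 and TOP2A, list genes that a result on a keratin turns on, the 5 genes most like each keratin, and the 10 genes with the largest smaller log2 ratio of the 2 libraries between carriers (cells with a UMI) and other cells, among genes with 50 UMIs in the carriers of each library. KRT5, KRT14, the neighbours of KRT6A, genes leading a cluster, and the sets of cells by KRT19 and ACTG2 were added after values were seen. Library ratios over all genes used those with at least 100 UMIs. A count of 0 was given a limit of 3 counts. Levels without the 3 richest cells leave those cells out of both the gene's UMIs and all UMIs. With 1 library per fibre type no test was run. The scripts were tested on simulated data. Alternatives were other thinning depths, cell filters, clustering settings, pseudocounts and limits for high cells.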

Additional observations from a re-analysis of the deposited data

How the results depend on the processing

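Of 171 alternative values for the main comparisons, 107 stayed, 63 moved and 1 reversed. A share, level or ratio stayed when it lay within the counting interval of the main value. Ranks and numbers of genes have no such interval. A rank stayed when it was equal, and a number of genes when it was within a fixed fold. Of 142 others, 76 stayed, 61 moved and 5 reversed, and 16 combinations gave no value, nor did KRT8 in cluster 11, with no UMI in CT-LCG. No library could be left out with 1 per fibre type. No paired analysis was possible because each fibre type has 1 library. Depth limits KRT8 and ACTG2, with 280 and 243 UMIs in CT-LCG. The cause of the moves below was not tested.

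The log2 ratio of the share of cells with a UMI, FT-LCG over CT-LCG, was 0.94 for KRT6A, 0.55 for KRT8 and 1.43 for KRT19. For KRT6A it was 1.17 at 2000 UMIs, 1.51 for cells with at least 2 UMIs and 1.22 in cells with at least 1000 genes. With 1000 genes KRT8 gave 1.60 and KRT19 1.99, and with 2 UMIs KRT19 gave 2.44. The share with SFRP1 in KRT6A carriers against other cells had a log2 ratio of 1.94 in CT-LCG at 1000 genes, and in FT-LCG of 0.37 without thinning, 1.02 at 1000 genes and -0.29 within cluster 6. The last was counted as a reversal by its sign, although its interval (-0.68 to 0.09) includes 0. For KRT8 the ratio with SFRP1 was 3.56 in CT-LCG at 500 UMIs, and 1.33 in FT-LCG without thinning and 0.13 within cluster 6. For KRT19 in FT-LCG it was 0.92 without thinning, 1.29 with 2 UMIs, 1.99 at 1000 genes and 0.12 within cluster 6. ACTG2 with KRT8 in FT-LCG gave 1.52 without thinning and 4.63 at 1000 genes. TOP2A with KRT19 gave 0.13 in CT-LCG at 2000 UMIs, and in FT-LCG 1.19 without thinning, 1.53 with 2 UMIs and 1.67 within cluster 6.

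Cluster 6 ranked 2 for KRT6A and 3 for KRT19 when the left-out genes entered the clustering. It ranked 2 for KRT8 and 3 for KRT19 without Harmony, and 5, 2 and 3 for KRT6A, KRT8 and KRT19 with 20 principal components, where the matching cluster shared 74.3% of its cells. The library log2 ratio was 1.44, 0.52 and 1.79 for KRT6A, KRT8 and KRT19 as a mean over cells, and 1.40, 0.70 and 0.78 with clusters weighted equally. With 10% free RNA subtracted, its profile taken from the barcodes not kept, the ratio was 1.95 for KRT6A and 1.15 for KRT8. For KRT6A it was 1.73 over all barcodes and 1.90 at 1000 genes. Without the 3 richest cells of each library, an alternative chosen after seeing the data, it was 2.22, 1.37 and 2.27 for KRT6A, KRT8 and KRT19, and in cluster 6 it was 1.49, 2.14 and 3.76. It reversed for KRT6A in clusters 11 (1.24) and 12 (1.06), for KRT8 in cluster 12 (2.00) and for KRT19 in clusters 7 (4.603) and 12 (2.78), since few cells hold the CT-LCG UMIs there.

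Of the 5 genes most like KRT6A, 3 were shared by Spearman's rho, 3 with CT-LCG alone and 2 with FT-LCG alone. For KRT8 the numbers were 3, 3 and 0. For KRT19, 2 were shared with a pseudocount of 1, 3 for CT-LCG and 2 for FT-LCG. With thinned levels 1 of 601, 2 of 121 and 11 of 218 genes were at least 2-fold higher in carriers of KRT6A, KRT8 and KRT19. With alternatives chosen after seeing the data, the FT-LCG high cells of KRT6A that were also high for KRT19 went from 2.73% to 0.426% at 10 UMIs and 20 per 10000. The share of high cells in cluster 6 was 60.2% for KRT19, 69.2% for KRT8 and 26.2% for KRT6A. It was 69%, 50% and 35.3% at that limit, and 48.6% for KRT19 and 20.1% for KRT6A at 3 UMIs and 5 per 10000. No cell was high for both KRT6A and KRT8 under any of the 5 settings tried, where 39 or fewer KRT8-high cells in 4 of them leave little to overlap, while KRT8 and KRT19 coincided in 54 of 81 and 4 of 8 KRT8-high cells at the lower and higher limits.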
